A study of Homo sapiens with 5 samples.

Results

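The gene-body windows that lie far from CpG islands were taken as the 59586 windows of 1000 bases, of 288391 in the deposited table (20.7%), whose CpG annotation was interCGI (outside islands, shores and shelves) and whose gene section was an intron, an exon, an intron-exon boundary or a 3' UTR. Of these, 38273 (64.2%) were intron windows, 16852 (28.3%) were intron-exon boundary windows, 2037 (3.42%) were exon windows and 2424 (4.07%) were 3' UTR windows. They were assigned to 18294 genes, with a median of 2 windows per gene, and 1006 genes held at least 10. DNA methylation had been measured by reduced representation bisulfite sequencing (RRBS) in human induced pluripotent stem cells (iPSCs). They were of a single line given as wild-type, HPS0063 (201B7, from Riken BRC), kept without feeder cells. The paper, though, places its methylation profiling in iPSCs engineered with a fluorescent methyl-CpG-binding reporter, mCherry-MBD-nls. Its RRBS methods name only cells, so whether these cells carried the reporter cannot be told. The cells were treated for 48 h, and each condition gave 1 library. The vehicle control received 0.1% DMSO, etoposide was given at 1 nM, propyl gallate and theophylline at 1 µM each and 5-aza-dc at 10 nM. Where the values of all 5 libraries are given together, they stand in this order, from the vehicle control to 5-aza-dc. With 1 library each, the conditions differ by chemical and by culture, DNA preparation and sequencing at once, which cannot be told apart.

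In mammals, methylated cytosines lie mostly in CpG dinucleotides, and most CpGs outside CpG islands are methylated. In the bodies of transcribed genes, the histone mark H3K36me3 laid down behind RNA polymerase recruits the de novo methyltransferase DNMT3B, while CpG-rich promoters are held free of methylation. Introns make up most of a gene's length, exons carry the mature message, and the 3' UTR is its untranslated end. Etoposide poisons topoisomerase II, propyl gallate is an antioxidant, theophylline is a methylxanthine that blocks phosphodiesterases and adenosine receptors, and 5-aza-dc (decitabine) is a cytidine analogue that, once in DNA, captures DNA methyltransferases. RRBS cuts DNA at CCGG, so that CpG-rich fragments are read more often than the rest of the genome. The β-value of a window is the percentage of its CpG calls that were methylated, and in bulk DNA a middle β-value cannot tell a share of the cells from a share of the alleles or of the CpGs in a window.

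Some gene-body windows far from islands held an annotated transcription start, of their own gene or of another, and these windows ranged from unmethylated to almost fully methylated. The interCGI label did not exclude CpG-dense promoters, since 51 windows held a promoter with at least 20 CpGs in 300 bases. Whether such stretches meet the definition of a CpG island was not tested. The 5 promoters shown here are the 250 bases before a RefSeq start (GRCh38.p14, 5′ to 3′ on the strand of the gene), with every CpG in capitals. The first 3 come from the 3 genes whose windows had the lowest mean β-values among promoters lying whole inside a member window, with 1 promoter shown per gene, and the last 2 had the highest mean β-values among those with at least 20 CpGs in the full 300 bases. IFI27L2, an interferon-inducible family member, lies at chr14:94129605-94129854 on the minus strand, SSB, which encodes the La RNA-binding protein, at chr2:169798621-169798870 on the plus strand, and MPP2, a membrane scaffold gene, at chr17:43900625-43900874 on the minus strand. LINC00879, a long non-coding RNA gene, lies at chr3:94938013-94938262 and AKAP12, a scaffold gene for protein kinase A, at chr6:151341456-151341705, both on the plus strand. All 5 windows were annotated as intron-exon boundaries.
IFI27L2: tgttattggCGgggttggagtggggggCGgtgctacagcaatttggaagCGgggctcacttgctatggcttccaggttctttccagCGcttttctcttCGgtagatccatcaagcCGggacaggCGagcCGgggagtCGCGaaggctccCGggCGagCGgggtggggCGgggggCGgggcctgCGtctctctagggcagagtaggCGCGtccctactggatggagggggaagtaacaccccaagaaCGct
SSB: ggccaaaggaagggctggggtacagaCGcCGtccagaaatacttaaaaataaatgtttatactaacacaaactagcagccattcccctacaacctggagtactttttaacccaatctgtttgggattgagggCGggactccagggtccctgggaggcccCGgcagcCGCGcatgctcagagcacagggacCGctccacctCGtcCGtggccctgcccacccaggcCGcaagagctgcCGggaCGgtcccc
MPP2: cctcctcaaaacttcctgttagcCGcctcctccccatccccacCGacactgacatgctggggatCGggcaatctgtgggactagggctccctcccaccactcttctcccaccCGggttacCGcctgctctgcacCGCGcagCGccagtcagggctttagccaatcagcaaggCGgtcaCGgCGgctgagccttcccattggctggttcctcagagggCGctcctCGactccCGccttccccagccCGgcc
LINC00879: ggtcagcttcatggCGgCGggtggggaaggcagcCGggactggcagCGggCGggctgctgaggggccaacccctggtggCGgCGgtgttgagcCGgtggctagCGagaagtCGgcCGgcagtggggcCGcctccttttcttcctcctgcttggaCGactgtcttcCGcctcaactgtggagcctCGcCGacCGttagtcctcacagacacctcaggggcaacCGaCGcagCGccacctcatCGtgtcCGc
AKAP12: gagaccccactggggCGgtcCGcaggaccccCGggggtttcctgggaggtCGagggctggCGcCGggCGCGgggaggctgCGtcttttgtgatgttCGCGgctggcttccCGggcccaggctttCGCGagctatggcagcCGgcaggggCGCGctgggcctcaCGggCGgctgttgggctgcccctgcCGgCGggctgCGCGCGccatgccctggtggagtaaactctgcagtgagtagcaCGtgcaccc
The sequences held 19, 12, 15, 22 and 25 CpGs in the order shown, and only the last 2 had been chosen for a high number of CpGs.

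The IFI27L2 window had β-values of 1.42%, 0, 0, 0.187% and 0 in the 5 libraries. In the SSB window they were 1.1%, 0, 0.590%, 0.592% and 0.256%, and in the MPP2 window 0.609%, 0.265%, 0.511%, 0.450% and 0.777%. These 3 windows were close to free of methylation in every library. The LINC00879 window had β-values of 98.5%, 98.5%, 93.4%, 95.1% and 97.0%, and the AKAP12 window 93.8%, 96.1%, 96.7%, 96.5% and 96.0%. The AKAP12 window rested on 1715 to 2545 calls per library and stayed above 93% in all of them.

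The windows held between 27126530 and 33327348 CpG calls per library, with a median of 327 to 418 calls per window, and 46520 windows had at least 100 calls in every library. Calls come from PCR-amplified reads without molecular identifiers, so all intervals given here cover counting error only. Promoter windows of the stem cell genes LIN28A, DNMT3B and SALL4 had β-values of 0.821%, 0.762% and 0.536% at their lowest in the vehicle control. The lowest promoter windows of L1TD1, ZFP42 and POU5F1, also stem cell genes, had 16.0%, 60.9% and 87.9%. The fibroblast genes COL1A1 and COL1A2 were also low, at 8.0% and 3.04%, and no RNA was measured, so the labelled cell type could not be checked by marker expression.

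Gene bodies far from islands were highly methylated in all 4 sections, with the mean highest in introns and lowest in intron-exon boundaries. Intron windows had mean β-values of 89.0%, 89.6%, 89.7%, 90.2% and 88.1% from the vehicle control to 5-aza-dc. Boundary windows had 86.6%, 87.1%, 87.2%, 87.6% and 85.4%, the lowest of the sections in each library. Exon windows had 87.6%, 88.2%, 88.4%, 88.8% and 86.6%, and 3' UTR windows 87.7%, 88.2%, 88.2%, 88.6% and 86.6%. The order of introns, then exons and 3' UTRs, then boundaries held in each of the 5 libraries, whereas exons and 3' UTRs changed places between libraries. Introns exceeded boundaries by 2.60 ± 0.0952 percentage points (SD over libraries, n = 5). An exact two-sided sign-flip permutation test over libraries gave p = 0.0625, the smallest that 5 libraries can give. The libraries read the same windows of 1 cell line under 5 conditions, so the SD holds treatment and technical spread. It does not measure the spread over windows or genes. Introns exceeded exons by 1.42 ± 0.0575 points and 3' UTRs by 1.49 ± 0.0988 points, and boundaries minus exons gave -1.18 ± 0.0636 and boundaries minus 3' UTRs -1.1 ± 0.0691. Each of these 4 differences had the same exact p of 0.0625, and 0.075 after Benjamini-Hochberg adjustment over the 6 pairs of sections, so none could pass 0.05 in this design. Exons and 3' UTRs differed by 0.073 ± 0.103 points, which was within the spread over libraries (exact p = 0.25).

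Set against the 110876 intergenic windows far from islands, introns were higher by 0.262 ± 0.0302 points and the difference for boundaries was -2.33 ± 0.0694 points (SD, n = 5). It was -1.16 ± 0.0390 points for exons and -1.23 ± 0.0792 for 3' UTRs, and each of the 4 had an exact sign-flip p of 0.0625. Introns were thus the only one of the 4 sections with a mean above the intergenic windows, in all 5 libraries. The medians were almost equal, at 91.98% for introns and 91.96% for intergenic windows in the vehicle control. Windows under 10% made up 0.580% and 0.688% of them there. Introns had a higher mean than boundaries on 22 of 22 autosomes in every library, a higher mean than exons on 16 or 17 and a higher mean than 3' UTRs on 17 to 21.

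The sections differed more in their low tails than in their typical windows. The median β-value in the vehicle control was 92.0% for introns, 91.4% for boundaries, 91.5% for exons and 91.4% for 3' UTRs. The 5th percentile was 71.7% for introns, 51.9% for boundaries, 65.0% for exons and 65.5% for 3' UTRs. Windows under 10% made up 0.580% of introns (222 windows), 2.19% of boundaries (369), 1.67% of exons (34) and 0.949% of 3' UTRs (23). A boundary window was therefore more often under 10% than a window of any other section in the vehicle control. The standard deviation over windows was 12 points for introns and 17.3 for boundaries.

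Sections were then compared inside the same gene, since each section draws on a different set of genes. In the vehicle control, 5419 genes had both intron and boundary windows, and in 2598 of them (47.9%) the intron mean was the higher. The mean within-gene difference was 1.75 points in favour of introns, but its median was -0.268, the opposite sign. The intron mean exceeded the exon mean in 136 of 305 genes (44.6%) and the 3' UTR mean in 490 of 1014 (48.3%). Boundaries exceeded exons in 159 of 348 genes (45.7%) and 3' UTRs in 498 of 991 (50.3%). In the vehicle control, then, introns were the higher section in under 50% of genes against each other section. Against boundaries and 3' UTRs the shares were close to 50%, and against 3' UTRs it was 50.4% in the etoposide library. Leaving out the windows whose mean over the libraries was under 10%, introns exceeded boundaries by 1.21 ± 0.101 points, and by 0.635 ± 0.0825 in medians of all windows, against 2.60 in means (SD, n = 5 libraries). Boundaries minus 3' UTRs shrank from -1.1 to -0.018 ± 0.0771 without the windows under 10% (exact p = 0.6875) and to -0.0337 ± 0.0626 in medians (exact p = 0.3125), both within the spread over libraries, so the lower mean of boundaries than of 3' UTRs did not hold under these settings. Exons minus 3' UTRs was 0.626 ± 0.109 without the windows under 10%, positive in place of near 0.

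Exon windows stood apart from the other sections by the kind of gene they came from. Only 9.18% of the exon windows belonged to genes that RefSeq lists as protein-coding, against 68.6% of intron, 74.6% of boundary and 98.4% of 3' UTR windows. Pseudogenes accounted for 20.6% of exon windows and long non-coding RNA genes for 14.6%, and 50.1% were assigned to a gene identifier with no symbol. Exon windows also lay close to gene starts, with a median distance of 1553 bases, compared with 28553 for introns, 19892 for boundaries and 40008 for 3' UTRs. Of the exon windows, 42.6% lay within 1 kb of the start, as did 9.17% of boundary, 1.81% of intron and 2.02% of 3' UTR windows. The biotype of the genes was not balanced between sections, and its part in the section differences was not tested.

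In boundary and intron windows, methylation was lowest next to the gene start, and most so in boundaries. Within 1 kb of the start, the mean β-value in the vehicle control was 74.2% for 1545 boundary windows, of which 12% were under 10%. It was 82.5% for 694 intron windows, 86.9% for 868 exon windows and 86.6% for 49 3' UTR windows. At 1 to 2 kb, boundaries were already at 85.5% and introns at 86.9%. Beyond 200 kb, introns were at 89.7% and boundaries at 88.3%. Exon windows were also lowest within 1 kb, but by little, with 87.5% at 5 to 10 kb and 87.3% at 10 to 50 kb. Of the exon windows within 1 kb, 2.42% were under 10%, against 1.16% at 5 to 10 kb. The 3' UTR windows were not marked in this way. They had 84.3% at 2 to 5 kb, and 0 of those within 1 kb were under 10%. Among windows over 10 kb from the start, an analysis chosen after seeing the data, introns still exceeded boundaries, by 1.22 points, whereas boundaries no longer lay under exons (-0.018) and lay above 3' UTRs (0.354).

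Annotated starts inside the windows marked part of this low tail. On the chromosomes covered by the RefSeq promoter table used here (all but chromosome 8), 517 of 57090 windows (0.906%) held a start, and their mean β-value in the vehicle control was 63.8%, compared with 88.4% for the windows without a start. The 402 boundary windows with a start had a mean of 61.7%, and 22.4% of them were under 10%. Without the windows holding a start, also chosen after seeing the data, introns exceeded boundaries by 1.97 points. Of the 626 windows with a mean β-value over the 5 libraries under 10% on these chromosomes, 105 (16.8%) held a start, 286 (45.7%) held one or lay within 1 kb of the start of their gene, and 340 did neither. Of these 340, 271 had at least 100 calls in every library, so most of them were well covered. Their distance from the starts of other genes was not examined.

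Among the 371 promoters of 300 bases that lay whole inside a member window, the β-value was lower where the promoter held more CpGs. The mean β-value over the 5 libraries was 81.9% for promoters with 0 to 4 CpGs, 71.8% for 5 to 9, 52.6% for 10 to 19 and 13.2% for at least 20. Of the 51 windows in the last class, 41 were under 10% and 5 were at least 70%, and the windows of LINC00879 and AKAP12 shown above were among the 5. The letters CG occurred in 98.9% of these promoters and in 96.0% of all 35116 promoters of the table, with a median of 8 and 14. The letters CCGG, which read the same on both strands and contain a CG, occurred in 68.5% and 63.1%. Promoters with at least 20 CpGs were 41.2% of all promoters, so the promoters inside these windows were mostly of the CpG-poor kind.

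The lowest windows were chosen as the 3 with the lowest mean β-value in each section among windows with at least 100 calls in every library. The boundary window of COPS6, a subunit of the COP9 signalosome, lies at chr7:100089001-100090000 and had a β-value of 0 in all 5 libraries. The vehicle control had 0 of 276 calls, which allows a methylated share of up to 1.09%. Boundary windows of UBR1, a ubiquitin ligase of the N-degron pathway, and EDC3, an mRNA decapping factor, had mean β-values of 0.161% and 0.183%. All 3 lay close to the gene start, at 32, 113 and 292 bases.

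The lowest intron windows lay deep inside their genes instead. That of AMPD3, which encodes an AMP deaminase, lies 43688 bases from the start at chr11:10352001-10353000 and had β-values of 0, 0.448%, 0.515%, 0.410% and 0. That of SOGA1, at chr20:36835001-36836000 and 27538 bases from the start, had 0, 0.778%, 0, 0.881% and 0. Each was on 189 to 357 calls per library, and neither held a RefSeq start. The third, 15656 bases into ENSG00000243620, had a mean of 0.0909%.

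Among 3' UTR windows the lowest were those of PPOX, an enzyme of haem synthesis, FHL3, a LIM-domain protein, and SMU1, a splicing factor, with mean β-values of 0.932%, 0.997% and 1.11%. The PPOX window, 10945 bases from the gene start at chr1:161177001-161178000, held a RefSeq start, and its β-values were 0.708%, 1.03%, 1.08%, 1.15% and 0.688%. Those of FHL3 and SMU1 held none. The lowest exon windows belonged to ENSG00000289260 (0.572%), ENSG00000289297 (0.576%) and the mitochondrial gene MT-ND4 (0.646%). The MT-ND4 window was the only member on mitochondrial DNA.

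Windows of the same gene resembled each other little. Over the 11100 genes with at least 2 windows, the intraclass correlation of the β-value in the vehicle control was 0.135, and the standard deviation within a gene was 12.5 points. The genes with the most windows were VAV2 (75 windows), SORCS2 (70), AUTS2 (65), CACNA1A, a calcium channel subunit (64), ADAMTS2 (62), ARHGEF10L (60), TRAPPC9 (58) and LRP5, a Wnt co-receptor (55). Their means in the vehicle control lay between 87.3% and 90.7%, while the windows of CACNA1A ranged from 11% to 98.1%. Among the 1006 genes with at least 10 windows, the median of the gene means was 89.6%, 57 were under 80% and 457 were at least 90%.

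The 5 highest means in the vehicle control were spread over a narrow range. PKNOX1, a homeobox factor, had 95.7%, MARK3, a kinase, 95.6%, TNRC6B, a partner of Argonaute, 95.5%, LRIG2 95.5% and MAP4, a microtubule-associated protein, 95.3%. No window of PKNOX1 was under 91.7%. The 5 lowest means were 63.1% for ZFYVE28, 70.8% for SLC27A1, a fatty acid transporter, 70.9% for ETV4, an ETS-family factor, 72.3% for DENND2A and 73.6% for ESRRB, an orphan nuclear receptor of the pluripotency network. In each of these genes windows of at least 70% stood beside much lower ones.

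ESRRB shows the pattern, with 22 windows of which, by mean over the 5 libraries, 2 were under 10%, 4 lay between 10% and 70% and 16 were at least 70%. Its intron window at chr14:76352001-76353000 had β-values of 3.82%, 3.22%, 6.52%, 2.42% and 1.47%, on 958 to 1282 calls per library. The window next but one, at chr14:76354001-76355000, had 85.4%, 89.9%, 84.6%, 87.7% and 89.95%. A patch of low methylation inside an intron thus ended within a few kilobases. In SLC27A1 the low windows lay near the start, with 0.658% in the vehicle control at chr19:17470001-17471000, which held a RefSeq start, and 95.3% at chr19:17474001-17475000.

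Gene lists were compared by the mean β-value of their windows in the vehicle control, beside 88.2% (median 91.8%) over all members. Spliceosome and RNA-binding genes had 94.0% over 64 windows and housekeeping genes 92.7% over 100, and both were the highest of the 11 lists. Liver secreted protein and metabolism genes had 90.2%, and DNA methylation writers, readers and erasers 89.3%. Collagen genes had 88.8% over 425 windows, voltage-gated channels 88.5% over 304, keratins 87.7% and synaptic and neuronal adhesion genes 87.7% over 311, all close to the mean of all members. Sarcomere genes had 86.6%, lymphocyte receptor and signalling genes 85.4% and pluripotency genes 83.4% over 95 windows. The pluripotency list had the lowest mean of the lists, but its median of 91.4% was close to that of all members, and 11.6% of its windows were under 70%, against 5.46% of all members and none of the spliceosome windows.

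Within the lists, 6 of the 11 genes with the lowest mean among those with at least 3 windows held a window under 10% by mean over the libraries, and in the other 5 (PRPF3, KCNB2, KRT3, COL11A2 and MYL3) no window was that low. TDGF1, a co-receptor for NODAL that marks pluripotent cells, had 2 windows, and both were low. Its intron window at chr3:46576001-46577000 had β-values of 6.97%, 5.75%, 6.01%, 8.22% and 6.59%. The adjoining boundary window at chr3:46577001-46578000, which held a RefSeq start, had 1.61%, 0.107%, 1.08%, 1.39% and 1.12%. TRIM71, an RNA-binding ubiquitin ligase of early embryonic cells and the lowest pluripotency gene with at least 3 windows, had a mean of 71.6%, with 1 window at 1.05%, 1 at 70.4% and the other 4 between 83.2% and 96.1% in the vehicle control. GDF3, a TGF-β family ligand, was the highest of that list at 95.2%.

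Among the methylation machinery, DNMT3A, a de novo methyltransferase, was the lowest at 77.7% over 12 windows. Its intron windows at chr2:25259001-25260000 and chr2:25260001-25261000 had 0.866% and 31.2% in the vehicle control, and 9 of the 12 windows were at least 70% by mean over the libraries. The second of these windows had 31.2%, 12.7%, 7.21%, 28.9% and 7.07%, so 3 libraries (etoposide, propyl gallate and 5-aza-dc) lay below the other 2, on 102 to 152 calls per library. GATA3, a T-helper cell factor, was the lowest lymphocyte gene at 58.1% over 6 windows, GRIA1, a glutamate receptor subunit, the lowest synaptic gene at 65.2% over 6 and APOB, the main protein of low-density lipoprotein, the lowest liver gene at 70.1% over 4. In APOB, the window 73 bases from the start had 2.48% and the other 3 had 88.3% to 96.0%. SRRM1, a splicing co-activator, had the highest mean of the spliceosome list at 95.9%, and PRPF3, its lowest, still had 93.4%.

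The mean over all gene-body windows far from islands was higher than in the vehicle control after 3 of the chemicals and lower after 5-aza-dc. With 1 library per condition these differences have no replicate check. Etoposide gave a difference of 0.581 percentage points (95% counting interval 0.556 to 0.607), propyl gallate 0.670 (0.645 to 0.695), theophylline 1.11 (1.08 to 1.13) and 5-aza-dc -1.0 (-1.03 to -0.974). All 22 autosomes moved the same way in each of the 4 comparisons, which share 1 vehicle control. After theophylline, 60.9% of the windows had a higher β-value than in the control, and after 5-aza-dc 57.2% had a lower one.

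The 5-aza-dc library differed least from the vehicle control in introns, and the other chemicals' libraries exceeded it by less in boundaries than in introns. The change after 5-aza-dc was -0.916 points in introns (95% counting interval -0.950 to -0.882), -1.18 in boundaries (-1.23 to -1.13), -1.03 in exons (-1.18 to -0.883) and -1.11 in 3' UTRs (-1.24 to -0.974). The change in introns exceeded that in boundaries by 0.261 points (0.20 to 0.323). After etoposide, the difference was 0.617 in introns, 0.503 in boundaries, 0.613 in exons and 0.534 in 3' UTRs, and the change in introns exceeded that in boundaries by 0.114. After propyl gallate, the differences were 0.712, 0.591, 0.748 and 0.479 in that order, with 0.121 between introns and boundaries. Theophylline gave the largest differences of these 3 chemicals in every section, at 1.17, 0.994, 1.13 and 0.959, with 0.173 between introns and boundaries. Introns therefore lay on the higher side of boundaries in all 4 comparisons, which share 1 vehicle control. That library had the smallest gap between introns and boundaries, at 2.46 points. Without it, the change in introns exceeded that in boundaries by 0.0075 (-0.0501 to 0.0651) for propyl gallate minus etoposide. For theophylline it was 0.0522 (-0.00405 to 0.109) against propyl gallate and 0.0597 against etoposide. For 5-aza-dc it was 0.148, 0.140 and 0.0878 against etoposide, propyl gallate and theophylline. The intergenic windows far from islands differed by -0.983 points after 5-aza-dc, between introns and boundaries.

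The size of the change depended on how methylated a window was, with windows classed by their mean over the 5 libraries. After 5-aza-dc, the difference was -0.494 points in the 649 windows under 10%, -2.79 in the 520 windows of 10% to 30%, -2.93 in the 1936 windows of 30% to 70%, -1.70 in the 15364 windows of 70% to 90% and -0.634 in the 41117 windows of at least 90%. Partly methylated windows thus differed the most. In the class of 30% to 70%, the difference was -2.49 points in introns (95% counting interval -2.81 to -2.17), -3.74 in boundaries (-4.18 to -3.31), -3.72 in exons and -2.79 in 3' UTRs. At 10% to 30%, the change in introns exceeded that in exons by 2.45 points (0.433 to 4.47) and that in 3' UTRs by 2.53 (1.07 to 3.98). Under 10% the order was the other way, with introns minus exons at -1.18 (-2.07 to -0.294) and introns minus 3' UTRs at -1.30 (-2.52 to -0.0746). Theophylline gave 0.0367 points in the lowest class, with a counting interval that holds 0 (-0.128 to 0.201), and 0.436, 0.678, 1.39 and 1.05 in the others. Etoposide and propyl gallate gave lower means under 10% (-0.281 and -0.340) and at 10% to 30% (-0.824 and -0.638) and higher means from 70% up. Between 30% and 70% they gave 0.148 and 0.157, with counting intervals that hold 0.

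Windows were also tested one by one between 2 libraries with Fisher's exact test, calling those with a Benjamini-Hochberg adjusted p under 0.01 over all 288391 windows whose β-values differed by 25 percentage points or more. The test compares 2 libraries and not 2 conditions. After 5-aza-dc, 176 members were lower (0.295%, against 0.234% of all windows) and 50 were higher (0.0839%, against 0.0759%). Of the lower ones, 111 were intron windows (0.290% of introns), 51 boundary windows (0.303%), 4 exon windows (0.196%) and 10 3' UTR windows (0.413%). After etoposide, 67 members were higher (0.112%, against 0.101% of all windows) and 41 lower (0.0688%, against 0.0902%). After propyl gallate, 49 were higher (0.0822%, against 0.0936%) and 57 lower (0.0957%, against 0.0836%). After theophylline, 74 were higher (0.124%, against 0.106%) and 39 lower (0.0655%, against 0.0683%). Calls of this size were rare, and the share of members called was near that of all windows for every chemical.

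With no minimum difference, small shifts in deep windows passed as well. After 5-aza-dc, 5765 members were lower (9.68%, against 10.5% of all windows) and 2256 higher (3.79%, against 3.59%). By section the lower windows were 9.21% of introns, 10.7% of boundaries, 9.82% of exons and 10.1% of 3' UTRs. After theophylline, 4895 were higher (8.22%, against 8.17%) and 1504 lower (2.52%, against 2.86%). After propyl gallate, 3968 were higher (6.66%, against 6.59%) and 1970 lower (3.31%, against 3.73%), and after etoposide 3770 higher (6.33%, against 6.43%) and 2052 lower (3.44%, against 3.76%). These shares too lay near the background of the whole table.

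For the largest differences, the called windows with at least 30 calls in both libraries were ranked, which left 154 windows for 5-aza-dc. The 3' UTR window of PTGES2, a prostaglandin E synthase, at chr9:128120001-128121000 had β-values of 89.3%, 96.5%, 93.4%, 89.1% and 35.4% (Fisher's exact test, adjusted p = 1.67e-07). Only the 5-aza-dc library was low in this window. The intron window of ENSG00000289733 at chr16:81916001-81917000 had 74.2%, 95.6%, 88.9%, 64.1% and 5.13% (Fisher's exact test, adjusted p = 1.05e-08), again with the 5-aza-dc library alone at a low level. SBSPON, a secreted matrix protein gene, had an intron window with 87.3%, 50%, 100%, 100% and 29.3%, but 3 of its libraries had 20 calls or fewer.

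In some of the other windows with the largest differences, the vehicle control itself stood apart or the libraries were scattered. The boundary window of LINC01312, at chr6:133837001-133838000, had 55.1%, 2.94%, 2.99%, 12.5% and 0, with the vehicle control alone above the rest. It was among the largest falls of all 4 chemicals, and the 4 comparisons share that 1 control value. The intron window of SPOCK1, a matrix proteoglycan gene, at chr5:137577001-137578000 had 47.7%, 86.4%, 95%, 100% and 100%, with the vehicle control lowest. The 3' UTR window of PNMA6F, at chrX:153317001-153318000, had 41.6%, 97.0%, 58.8%, 91.9% and 94.7%, with the vehicle control and propyl gallate below the rest. The intron window of DMD, the dystrophin gene, had 53.8%, 93.2%, 88.9%, 85.1% and 98.7%, and that of GRM4, a glutamate receptor gene, 51.1%, 77.1%, 54.2%, 72.5% and 97.6%.

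The windows of RBSN and SPRING1 stood out in 1 chemical's library each, while the last 3 windows named here were scattered. The boundary window of RBSN, an endosomal tethering factor, at chr3:15084001-15085000 had 66.7% after propyl gallate, from 24 of 36 calls, and 0 in each of the other libraries. With 0 of 50 calls in the vehicle control, the Fisher's exact test gave an adjusted p of 4.23e-10. The boundary window of SPRING1, a regulator of the SREBP pathway, at chr12:116717001-116718000 had 98.6%, 87.0%, 93.7%, 56.5% and 98.3%, with the theophylline library lowest. The intron window of AFAP1L2 had 100%, 95%, 50%, 80% and 85.7%, and those of CAMK2A, a calmodulin-dependent kinase, and NFATC2, a T-cell transcription factor, had 76.9%, 33.8%, 43.8%, 71.8% and 46.8% and 22.6%, 74.3%, 26.8%, 34.0% and 55.3%. These last 3 windows had under 60 calls in every library and values spread over the range between the extremes.

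The 5-aza-dc library stood apart below all the others more often than any other library did. It lay at least 25 points under each of the other 4 in 112 members (0.188%, against 0.158% of all windows). The vehicle control did so in 21 members (0.0352%, against 0.0319% of all windows) and etoposide in 24 (0.0403%, against 0.0433%). Propyl gallate did so in 21 (0.0352%, against 0.0312%) and theophylline in 23 (0.0386%, against 0.0326%). Of the windows with at least 100 calls in every library, 7 members were of this kind for 5-aza-dc (0.0150% of such members, against 0.00684% of such windows in the whole table) and 0 for each other library. The 7 were chosen after their values were seen.

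The lowest of the 7 after 5-aza-dc was the boundary window of SSUH2 at chr3:8623001-8624000, with β-values of 43.0%, 34.6%, 43.3%, 43.7% and 1.20%, on 276 to 540 calls. The intron window of TENT5D, a poly(A) polymerase, had 77.1%, 85.7%, 79.9%, 87.8% and 39.5%, and that of ZMIZ1, a transcriptional co-regulator, 60.0%, 59.5%, 58.7%, 63.9% and 24.1%. In ZMIZ1 the 4 other libraries lay close to each other, while in TENT5D they ranged from 77.1% to 87.8%. In both, the 5-aza-dc library lay far below them. The remaining 4 lay in introns of ADGRE4P (46.8% after 5-aza-dc), ITIH6 (34.7%), ENSG00000248636 (61.2%) and STEEP1 (63.2%). The 5-aza-dc library had the fewest calls in each of these 7 windows.

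By gene, the mean of the windows was lower after 5-aza-dc in 730 of the 1006 genes with at least 10 windows (72.6%), and the counting interval lay below 0 in 358 and above 0 in 56. After theophylline 821 of the 1006 (81.6%) were higher, after propyl gallate 694 and after etoposide 656. The 3 largest falls after 5-aza-dc were those of CACNG2, which encodes the AMPA receptor regulator stargazin, PIK3R6, a regulatory subunit of PI3-kinase gamma, and UNC5A, a netrin receptor. CACNG2 had means of 87.4%, 85.6%, 85.8%, 88.9% and 77.9% over its 12 intron windows, a change of -9.48 points (95% counting interval -13.5 to -5.49). PIK3R6 had 83.6%, 83.3%, 85.6%, 87.4% and 74.2%, and UNC5A had 78.9%, 75.6%, 78.3%, 78.8% and 70.8%. In all 3 genes the 5-aza-dc library was below the other 4. The 3 largest rises were those of SLCO2A1, a prostaglandin transporter (78.1% to 85.9%), ERCC3, a helicase of TFIIH (83.0% to 87.9%), and WNT3, a Wnt ligand (84.2% to 88.5%), and in these the vehicle control was the lowest of the 5 libraries.

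Among the lists, the difference after 5-aza-dc was -1.65 points in collagen genes, where 30 of 40 genes were lower, -1.62 in pluripotency genes (16 of 20), -1.34 in the methylation machinery (16 of 19) and -1.21 in synaptic genes (29 of 38), beside -1.0 over all members (11073 of 18294 genes). In sarcomere genes it was -1.17 (15 of 24 lower), in voltage-gated channels -1.08 (19 of 31) and in keratin genes -0.451 (11 of 19). It was higher by 0.435 in spliceosome genes, where 12 of 18 genes were higher, and by 0.377 in lymphocyte genes (16 of 30), and it differed by -0.245 in housekeeping genes (12 of 22 higher) and -0.0339 in liver genes (13 of 24 higher). After theophylline, all 11 lists had a higher mean than in the vehicle control, from 0.345 in the methylation machinery to 2.97 in keratin genes. With 1 library per condition, none of these differences between lists was tested.

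The spread of a window over the 5 libraries was larger than counting gave. In the 46520 windows with at least 100 calls in every library, the median standard deviation over libraries was 2.46 points, compared with 1.27 from counting alone. It was 2.48 in introns, 2.43 in boundaries, 2.43 in exons and 2.45 in 3' UTRs. A range of at least 25 points was seen in 0.206% of these windows, and by section in 0.195% of introns, 0.241% of boundaries, 0.0623% of exons and 0.263% of 3' UTRs, a difference that was not tested.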

How the data were processed

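Windows were grouped by the CpG annotation and gene section of the deposited table. The submitters' processing notes name the genome build hg38, and coordinates are given as deposited. The authors trimmed reads with Trim Galore 0.5.0, aligned them with Bismark 0.20.0, converted files with SAMtools 1.9 and summed CpG calls over non-overlapping windows of 1000 bases with methylKit 1.10.0. Coverage was then scaled between libraries, windows read too rarely or too often were dropped, and those shared by all libraries were kept. The authors deposited raw counts for the vehicle control. The values the authors deposited for the chemicals are treated as a score, because counts had been multiplied by a factor and rounded. Window β-values are a fraction the authors computed from these calls, given here as a percentage.

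Calls before scaling were recovered by division with a factor per library, between 1.0874 for propyl gallate and 1.2108 for 5-aza-dc, and multiplying them again matched the table in at least 99.95% of windows. They were used for Fisher's exact test (two-sided, Benjamini-Hochberg over all windows) and for binomial counting intervals. This departs from a test on the deposited values. Section differences were taken within each library and tested by an exact two-sided sign-flip permutation test over the 5 libraries. Windows and genes are not replicates, and no p-value over them is given. Promoters were matched by position from RefSeq (GRCh38.p14), and gene biotypes by symbol, with 9952 windows lacking one.

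The members, gene lists and alternatives were chosen with earlier results of these data known. Named were the 8 genes with the most windows, the 5 highest and 5 lowest gene means and the 3 largest rises and falls after 5-aza-dc among genes with at least 10 windows, the 3 lowest windows per section with at least 100 calls, and the largest window changes with at least 30 calls (2 rises and 2 falls per chemical, 4 each for 5-aza-dc), plus the highest and lowest gene of each list with at least 3 windows. Other names were chosen after their values were seen. The code for Fisher's exact test was tried on simulated data. All steps ran in Python 3.11.15 with numpy 2.4.6, pandas 2.3.3, scipy 1.17.1, numba 0.67.0 and matplotlib 3.10.9.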

Additional observations from a re-analysis of the deposited data

How the results depend on the processing

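Between conditions, no paired analysis was possible because each condition has 1 library. Of 96 alternative values of the section differences, 92 kept their direction, though boundaries minus 3' UTRs came near 0 at -0.018 without windows under 10% and -0.0337 in medians. Exons minus 3' UTRs became -0.143 with each gene counted once and -0.161 without windows within 5000 bases of an island, shore or shelf window, introns minus exons became -0.321 in genes with all 4 sections, and boundaries minus 3' UTRs became 0.354 over 10 kb from the gene start. Leaving out each library in turn gave 2.56 to 2.63 for introns minus boundaries, 1.40 to 1.43 minus exons and 1.47 to 1.53 minus 3' UTRs. It gave -1.20 to -1.16 for boundaries minus exons, -1.13 to -1.08 minus 3' UTRs, and 0.0354 to 0.103 for exons minus 3' UTRs, with 0.125 the smallest exact p that 4 libraries allow.

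The differences from the vehicle control kept their direction over all levels together, with medians of 0.601 (propyl gallate), 1.01 (theophylline) and -0.752 (5-aza-dc). Pooling all calls gave 0.611 (etoposide), 0.609, 1.14 and -1.11, and for theophylline at least 30 and 100 calls gave 1.08 and 1.07. By level, from lowest to highest, etoposide gave -0.281, -0.824, 0.148, 0.649 and 0.607, propyl gallate -0.340, -0.638, 0.157 and 0.796 in the first 4 classes, theophylline 0.0367, 0.436, 0.678, 1.39 and 1.05, and 5-aza-dc -0.494, -2.79, -2.93, -1.70 and -0.634. With another reference, etoposide differed by -0.0889 from propyl gallate, -0.528 from theophylline and 1.58 from 5-aza-dc. Propyl gallate differed by 0.0889, -0.439 and 1.67 from etoposide, theophylline and 5-aza-dc, theophylline by 0.528, 0.439 and 2.11 from etoposide, propyl gallate and 5-aza-dc, and 5-aza-dc by -1.58, -1.67 and -2.11 from etoposide, propyl gallate and theophylline.

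Members called by Fisher's exact test numbered 108, 106, 113 and 226 for etoposide, propyl gallate, theophylline and 5-aza-dc. With a minimum of 10 points they were 1381, 1355, 1393 and 2259, with no minimum 5822, 5938, 6399 and 8021, and with calls divided by 2 18, 18, 22 and 60. With at least 30 calls in all libraries they were 64, 68 and 139 for the last 3. With at least 3 windows per section, introns exceeded boundaries in 48.0% of genes, introns exceeded 3' UTRs in 43.6% and boundaries exceeded 3' UTRs in 55.5%, and too few genes were left for the 3 pairs with exons (4, 4 and 0). The cause of these shifts was not tested.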

Other observations

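Distance from the nearest interval in the deposited CpG annotation coordinates was set beside the β-value as well. In the vehicle control, intron windows averaged 88.3% with such an interval under 5 kb away and 89.6% with none within 50 kb. Boundary windows had 86.8% and 85.3%, but stayed at 86.8% to 87.0% in the classes up to 50 kb and were lower only beyond it. Their medians were 91.3% under 5 kb and 91.4% beyond 50 kb. This was not among the comparisons of the report, and no test was made.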
